A study of Homo sapiens with 18 samples.

Results

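The genes described here are MAP3K3 and 8 related kinases of the mitogen-activated protein kinase (MAPK) cascades, namely MAP3K1, MAP3K2, MAP3K4, MAP3K5, MAP3K8, MAP3K14, MAP2K5 and MAPK7. They were taken by name and found by their Ensembl identifiers in both count tables, where they were 9 of 58825 genes. All 9 passed the filter on low counts in every fit, with counts per library from 121 (MAP3K5) to 5292 (MAP3K3). The study placed MAP3K3 in its core response to these inhibitors from the same libraries, so the direction of MAP3K3 below is not independent evidence.

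A MAPK cascade is a relay in which a MAP kinase kinase kinase (MAP3K) phosphorylates a MAP kinase kinase (MAP2K), which in turn phosphorylates a MAP kinase. MAP3K2 and MAP3K3 are close paralogues that bind MAP2K5 (MEK5) through PB1 domains, and MAP2K5 activates MAPK7 (ERK5). The other MAP3Ks feed mainly the JNK, p38, ERK and NF-κB routes. BET inhibitors (BETi) displace the BET family of bromodomain proteins from acetylated histones, and so alter the transcription of many genes.

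Poly-A RNA was sequenced from OVCAR-3, a widely used established line of high-grade serous ovarian carcinoma, in 18 libraries. The cells, all in stripped medium, received DMSO, 1 µM i-BET858 or 1 µM i-BET151 for 4 or 24 h, with 3 biological replicates in each of the 6 conditions. The sources used here do not say whether replicates came from separate plates or days, and p-values measure only the spread between these libraries of 1 cell line. Library totals lay between 27323969 and 46299994 counts. Replicate 3 stood apart from the others in every condition: 17817 to 20642 genes had a count there, against 23674 to 24947 in replicates 1 and 2. For some results that differed between replicate 3 and the others, values without it are also given. Of 14 markers of serous ovarian epithelium, 13 had a median of at least 1 CPM (read counts scaled by library size), among them PAX8 (387 to 612 CPM) and WT1 (102 to 180 CPM), whereas ESR1 was at 0 to 1.08 CPM. None of 5 leukocyte markers reached a median of 1 CPM. Of 6 fibroblast markers, COL1A1 alone did (21.1 to 46.7 CPM), and of 4 endothelial markers VWF and KDR did, at medians of 2.80 and 1.43 CPM. The summed level of the 14 epithelial markers was 10541 to 11771 CPM with DMSO at 4 h and 13399 to 13952 CPM with i-BET858, while i-BET151 at 11171 to 11833 CPM overlapped DMSO. At 24 h it was 10657 to 11833 CPM with DMSO, 8636 to 8827 CPM with i-BET858 and 8322 to 8597 CPM with i-BET151. KRT8 alone held 3740 to 7370 CPM over the 18 libraries, so this sum follows that keratin far more than PAX8 or WT1. The 4 endothelial markers summed to 3.38 to 6.63 CPM with DMSO and 9.23 to 15.9 CPM with i-BET858 at 4 h, and to 3.67 to 7.04 and 2.17 to 3.45 CPM at 24 h. With i-BET151 they summed to 4.58 to 12.4 CPM at 4 h and 1.73 to 5.76 CPM at 24 h, overlapping DMSO at both times. The part of these shifts in the results below was not tested.

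MAP3K3 (ENSG00000198909.7) lies on chromosome 17 from 63622415 to 63696305 on the plus strand of GRCh38, in the GENCODE 44 annotation. Of its annotated exon bases, 6.84% overlap exons of LIMD2 on the opposite strand, a gene with 117 to 308 counts per library. MAP3K14 shares 15.14% of its exon bases with MAP3K14-AS1 (35 to 115 counts) and MAPK7 shares 4.68% with B9D1 (581 to 1182 counts), both on the opposite strand. The strand setting of the counting is not given in the sources used here, so in these stretches reads of both partners may not be told apart. In bulk RNA, fewer cells with a transcript and less of it in each cell cannot be told apart either.

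The promoter windows of 3 genes are shown, because MAP3K3 and MAP3K14 were the 2 transcripts higher with both inhibitors at both times, and MAP3K2 is the closest relative of MAP3K3 and moved the other way at 4 h. Each is a RefSeq window on GRCh38.p14, 5′ to 3′ along the gene, from 250 bases before to 50 after an annotated transcript start. Capitals mark the letters CCAAT of the CCAAT box, which read ATTGG where they lie on the other strand, and the letters GGGCGG of the GC box, which there read CCGCCC. The windows are chr17:63622167-63622466 (plus strand) for MAP3K3, chr17:45316971-45317270 (minus strand) for MAP3K14 and chr2:127388416-127388715 (minus strand) for MAP3K2.
MAP3K3: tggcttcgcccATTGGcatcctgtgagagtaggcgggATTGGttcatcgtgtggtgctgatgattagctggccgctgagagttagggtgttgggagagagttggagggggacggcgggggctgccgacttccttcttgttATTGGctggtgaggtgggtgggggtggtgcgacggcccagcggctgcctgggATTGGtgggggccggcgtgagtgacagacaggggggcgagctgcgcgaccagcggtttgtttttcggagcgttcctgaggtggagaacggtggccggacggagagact
MAP3K14: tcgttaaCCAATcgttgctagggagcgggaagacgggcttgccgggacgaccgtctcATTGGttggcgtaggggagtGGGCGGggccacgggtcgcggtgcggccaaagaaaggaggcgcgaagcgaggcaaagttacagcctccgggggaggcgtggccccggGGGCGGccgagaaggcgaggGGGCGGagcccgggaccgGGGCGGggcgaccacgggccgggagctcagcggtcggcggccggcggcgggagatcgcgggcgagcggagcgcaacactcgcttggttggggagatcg
MAP3K2: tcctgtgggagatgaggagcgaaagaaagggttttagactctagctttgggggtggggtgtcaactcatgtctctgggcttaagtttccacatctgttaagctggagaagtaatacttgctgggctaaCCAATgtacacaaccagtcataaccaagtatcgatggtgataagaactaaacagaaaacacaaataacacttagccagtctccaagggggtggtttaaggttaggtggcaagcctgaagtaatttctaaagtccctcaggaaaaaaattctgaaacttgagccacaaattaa

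The MAP3K3 window held 4 CCAAT matches, all on the minus strand, which began 239, 213, 110 and 58 bases before the start. Of the 34943 RefSeq windows of the same length, 0.996% held 4 or more and 34.6% held at least 1, with both strands searched. The MAP3K14 window held 2 CCAAT and 4 GGGCGG matches, and the MAP3K2 window held 1 CCAAT and no GGGCGG. At least 1 GGGCGG stood in 44.9% of all windows and 4 or more in 9.02%, while 10.8% held 2 or more CCAAT. RefSeq windows were found for 8 of the 9 genes, 13 windows in all. Apart from those printed, only the second window of MAPK7 held CCAAT, with 2 matches. The letters of the TATA box (TATAAA), E-box (CACGTG), AP-1 site (TGANTCA) and cAMP response element (TGACGTCA) were also searched for. The second window of MAP2K5 held 1 TATAAA and the second of MAP3K8 held 1 TGANTCA, and these motifs had no other match. The 0.996% for MAP3K3 is thus a share for 1 of several motifs in 13 windows, and was not adjusted for that. All these matches are letters in a window and were not tested as binding sites. GC content was 63.3% in the MAP3K3 window, 72.7% in that of MAP3K14 and 42.7% in that of MAP3K2.

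The kinases split by direction, and MAP3K3 changed most in each comparison of an inhibitor with DMSO. After 4 h with i-BET858, 6 of the 9 transcripts passed the edgeR quasi-likelihood test at an adjusted p under 0.05: MAP3K3, MAP3K14 and MAP3K8 were higher, and MAP3K2, MAP3K4 and MAP3K5 were lower. Across all genes tested, 30.8% were called in that comparison. With i-BET151 at 4 h, 4 of 9 were called (16.2% of all genes), with MAP3K3 and MAP3K14 higher and MAP3K2 and MAP3K5 lower. At 24 h, 4 of 9 were called with i-BET858, close to the 41.7% of all genes, and 3 of 9 with i-BET151 (33.8% of all genes). MAP3K3 and MAP3K14 were higher and MAP2K5 was lower with both inhibitors at 24 h, and MAP3K5 was lower with i-BET858. The share called among the kinases thus stood above that of all genes at 4 h and near it at 24 h. These shares count MAP3K3, which the study named from the same libraries, and the kinases were chosen with earlier results of these data known. The shares are therefore a description. Both inhibitors were compared with the same DMSO libraries, so their agreement on a gene is not independent.

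**Figure D1:**
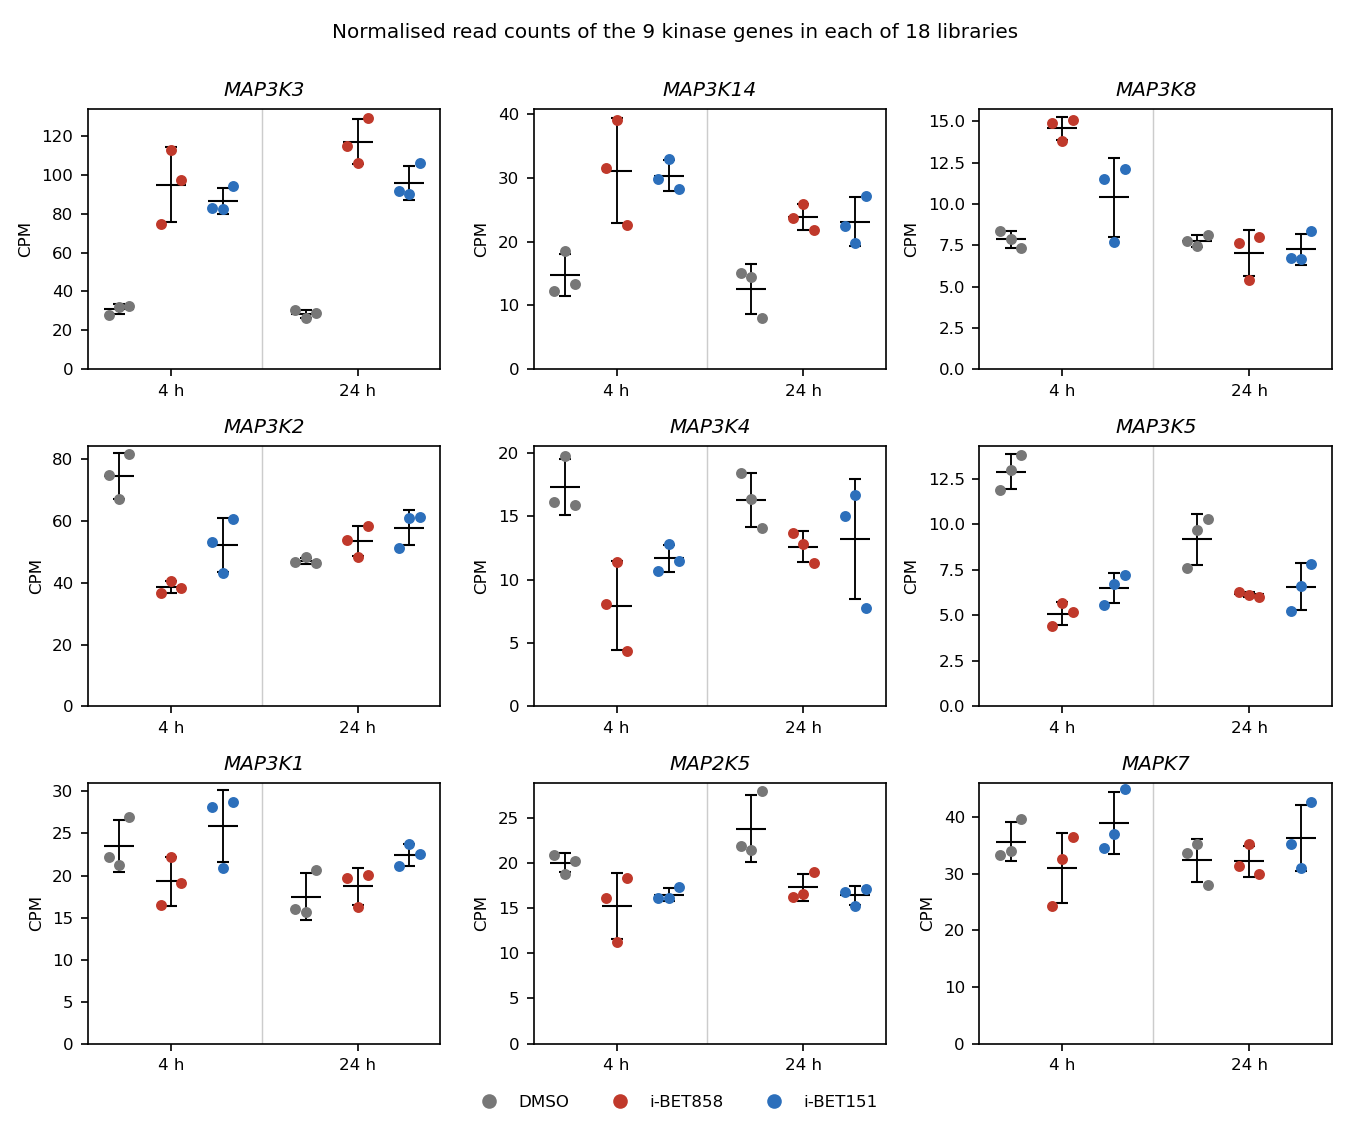
Normalised read counts (CPM, linear axes from 0) of the 9 kinase genes, with 1 point per library and black bars for the mean ± SD of 3 replicates, for DMSO, i-BET858 and i-BET151 at 4 h (left of each panel) and 24 h (right). The MAP3K3 points of the treated libraries, from 74.7 to 129 CPM, all lie above those of DMSO, from 26.1 to 32.4 CPM.

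MAP3K3 encodes MEKK3, which acts upstream of ERK5, p38 and NF-κB. At 4 h its level was 28.0, 32.1 and 32.4 CPM in the DMSO libraries, 74.7, 113 and 97.1 CPM with i-BET858, and 82.7, 82.6 and 94.3 CPM with i-BET151. Every treated library lay more than 40 CPM above every DMSO library. The rise was 3.09-fold with i-BET858 (log2 fold change 1.63, SE 0.16, adjusted p = 2.36e-05) and 2.80-fold with i-BET151 (1.49, adjusted p = 0.000132). At 24 h DMSO libraries held 30.4, 26.1 and 28.8 CPM, against 115, 106 and 129 CPM with i-BET858 and 91.5, 89.9 and 106 CPM with i-BET151. The groups again did not overlap. The rise was then 3.99-fold (log2 fold change 2.0, SE 0.12, adjusted p = 1.12e-06) and 3.32-fold (1.73, adjusted p = 4.76e-06). In replicate 3 alone the 4 log2 fold changes were 1.58, 1.54, 2.16 and 1.88, and in replicates 1 and 2 they were 1.64, 1.45, 1.94 and 1.65, in the same order. MAP3K3 kept its call in all alternatives run, with adjusted p values of at most 0.000307 for i-BET858 at 4 h and 0.00138 for i-BET151 at 4 h when a library was left out.

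MAP3K2 (ENSG00000169967.16, chromosome 2, 127298668 to 127388465, minus strand) encodes MEKK2, the paralogue of MEKK3 upstream of ERK5. At 4 h it stood at 74.9, 67.1 and 81.9 CPM with DMSO, 36.6, 40.6 and 38.5 CPM with i-BET858, and 53.1, 43.1 and 60.7 CPM with i-BET151. All DMSO libraries lay above all treated ones. Its transcripts were 1.93-fold lower with i-BET858 (log2 fold change −0.95, SE 0.15, adjusted p = 0.000539) and 1.43-fold lower with i-BET151 (−0.52, SE 0.15, adjusted p = 0.0325). The second call was lost when any of 4 libraries was left out: DMSO replicate 1 or 3, or i-BET151 replicate 1 or 2 (adjusted p up to 0.131). At 24 h MAP3K2 held 46.7, 48.3 and 46.5 CPM with DMSO, 53.8, 48.5 and 58.4 CPM with i-BET858, and 51.4, 61.1 and 61.2 CPM with i-BET151. Treated libraries then lay above DMSO, by small amounts. The log2 fold changes were 0.15 (adjusted p = 0.312) and 0.28 (adjusted p = 0.0719), and the second passed with replicate number as a block (adjusted p = 0.0353).

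The effect of each inhibitor on MAP3K2 against DMSO changed between the times. It moved by 1.14 on the log2 scale with i-BET858 (SE 0.18, adjusted p = 0.000158) and by 0.81 with i-BET151 (SE 0.18, adjusted p = 0.00587). In DMSO alone the mean was 74.7 CPM at 4 h and 47.1 CPM at 24 h, a log2 difference of −0.66 (SE 0.13, adjusted p = 0.0749). That difference passed with the replicate block (adjusted p = 0.00459) and in DESeq2 (adjusted p = 0.00227). With i-BET858 the mean went from 38.6 to 53.6 CPM over the same times, and with i-BET151 from 52.3 to 57.9 CPM.

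MAP2K5 (ENSG00000137764.20, chromosome 15, 67542703 to 67807117, plus strand) encodes MEK5, the kinase between these MAP3Ks and ERK5. At 24 h it held 21.9, 21.4 and 28.0 CPM with DMSO, 16.2, 16.6 and 19.0 CPM with i-BET858, and 16.8, 15.2 and 17.1 CPM with i-BET151. No treated library reached the DMSO range. The transcript was 1.42-fold lower with i-BET858 (log2 fold change −0.50, SE 0.15, adjusted p = 0.0175) and 1.47-fold lower with i-BET151 (−0.56, SE 0.15, adjusted p = 0.0130). The first call was lost without DMSO replicate 3, i-BET858 replicate 1 or i-BET858 replicate 2 (adjusted p up to 0.0699), and the second without i-BET151 replicate 2 (adjusted p = 0.0568). At 4 h the DMSO libraries had 20.9, 18.8 and 20.2 CPM, those with i-BET858 16.1, 11.2 and 18.3 CPM, and those with i-BET151 16.1, 16.1 and 17.3 CPM. Here too the groups were apart, yet neither difference passed the test. i-BET858 gave a log2 fold change of −0.39 (adjusted p = 0.134, or 0.0321 with the replicate block), and i-BET151 one of −0.28 (adjusted p = 0.352).

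MAPK7 (ENSG00000166484.20, chromosome 17, 19377721 to 19383544, plus strand) encodes ERK5 itself, which activates MEF2 factors and carries a transactivating tail. Its level ran from 24.3 to 45.0 CPM over the 18 libraries, and the treated and DMSO libraries overlapped in all 4 comparisons. No comparison was called, with log2 fold changes between −0.19 and 0.15. With i-BET151 at 24 h, replicates 1 and 2 gave −0.09 and replicate 3 gave 0.6. The 95% intervals were −0.57 to 0.19 with i-BET858 and −0.26 to 0.50 with i-BET151 at 4 h, and −0.36 to 0.27 and −0.17 to 0.46 at 24 h.

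MAP3K14 (ENSG00000006062.16, chromosome 17, 45263119 to 45317029, minus strand) encodes NIK, the kinase that starts noncanonical NF-κB signalling. At 4 h it was at 12.3, 18.5 and 13.4 CPM with DMSO, 31.5, 39.0 and 22.6 CPM with i-BET858, and 29.8, 33.0 and 28.2 CPM with i-BET151. Both treated groups lay above DMSO. The rise was 2.11-fold (log2 fold change 1.07, SE 0.21, adjusted p = 0.00272) and 2.05-fold (1.03, SE 0.21, adjusted p = 0.00711). At 24 h it held 15.1, 14.4 and 7.99 CPM with DMSO, 23.7, 25.9 and 21.8 CPM with i-BET858, and 22.5, 19.7 and 27.2 CPM with i-BET151. DMSO replicate 3 was the lowest of all libraries, and the groups did not overlap. The fold changes were 1.86 (log2 0.89, SE 0.22, adjusted p = 0.00754) and 1.83 (log2 0.87, SE 0.22, adjusted p = 0.0110). In replicate 3 the log2 fold changes at 24 h were 1.45 and 1.77, against 0.72 (adjusted p = 0.000117) and 0.48 (adjusted p = 0.00285) in replicates 1 and 2, where both remained called. MAP3K14-AS1, whose exons overlap this gene, reached at most 115 counts in a library, against 251 to 1188 counts for MAP3K14.

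MAP3K8 (ENSG00000107968.10, chromosome 10, 30434021 to 30461833, plus strand) encodes TPL2, which activates MEK1 and MEK2 and is held by the NF-κB precursor encoded by NFKB1. At 4 h it stood at 8.38, 7.86 and 7.34 CPM with DMSO, 14.9, 13.8 and 15.1 CPM with i-BET858, and 11.5, 7.71 and 12.1 CPM with i-BET151. The i-BET858 libraries were the highest, and the i-BET151 group overlapped DMSO through its replicate 2. MAP3K8 was 1.86-fold higher with i-BET858 (log2 fold change 0.90, SE 0.20, adjusted p = 0.00483), whereas i-BET151 gave a log2 difference of 0.41 (adjusted p = 0.194). At 24 h all 9 libraries lay between 5.42 and 8.35 CPM, with fold changes of −0.19 and −0.12 on the log2 scale (adjusted p = 0.465 and 0.676). The fall of the i-BET858 effect from 4 to 24 h was itself called, at −1.04 on the log2 scale (SE 0.27, adjusted p = 0.00750). With i-BET151 it was −0.51 (adjusted p = 0.239).

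MAP3K5 (ENSG00000197442.10, chromosome 6, 136557046 to 136793097, minus strand) encodes ASK1, a stress kinase upstream of JNK and p38 that thioredoxin inhibits. At 4 h DMSO libraries had 11.9, 13.0 and 13.8 CPM, those with i-BET858 4.42, 5.68 and 5.17 CPM, and those with i-BET151 5.59, 6.73 and 7.22 CPM. The DMSO values were all well above the treated ones. MAP3K5 was 2.53-fold lower with i-BET858 (log2 fold change −1.34, SE 0.19, adjusted p = 0.000326) and 1.99-fold lower with i-BET151 (−0.99, SE 0.19, adjusted p = 0.00474). At 24 h it was at 7.60, 9.67 and 10.3 CPM with DMSO, 6.27, 6.14 and 6.03 CPM with i-BET858, and 5.25, 6.60 and 7.83 CPM with i-BET151. The i-BET858 group stayed below DMSO, and i-BET151 replicate 3 overlapped it. i-BET858 gave a log2 fold change of −0.62 (SE 0.20, adjusted p = 0.0273), and i-BET151 one of −0.51 (adjusted p = 0.0712, or 0.0247 with the replicate block). The i-BET858 call at 24 h was lost without DMSO replicate 2 or 3 or any i-BET858 library (adjusted p up to 0.0865), and without the filter on low counts (adjusted p = 0.0777). The i-BET858 effect became smaller from 4 to 24 h by 0.77 on the log2 scale (SE 0.26, adjusted p = 0.0380), a call that 10 of 18 fits with a library left out lost (adjusted p up to 0.107). DMSO itself differed by −0.50 between the times (adjusted p = 0.376).

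MAP3K4 (ENSG00000085511.20, chromosome 6, 160991727 to 161117385, plus strand) encodes MEKK4, which GADD45 proteins bind and activate. At 4 h it held 16.1, 19.8 and 15.9 CPM with DMSO, 8.07, 11.4 and 4.40 CPM with i-BET858, and 10.7, 12.8 and 11.5 CPM with i-BET151. Neither treated group reached the DMSO libraries, and i-BET858 replicate 3 was the lowest of the 18. The fall of 2.17-fold with i-BET858 was called (log2 fold change −1.12, SE 0.28, adjusted p = 0.0112). It was −1.85 in replicate 3 and −0.88 in replicates 1 and 2 (adjusted p = 0.00520). i-BET151 gave −0.57 on the same scale (SE 0.28, adjusted p = 0.207, or 0.0466 with the block). At 24 h MAP3K4 had 18.4, 16.4 and 14.1 CPM with DMSO, 13.7, 12.8 and 11.3 CPM with i-BET858, and 15.0, 16.7 and 7.80 CPM with i-BET151. The i-BET858 libraries lay below DMSO, and the wide range with i-BET151 overlapped it. Neither difference was called at 24 h, at −0.41 (adjusted p = 0.205) and −0.33 (adjusted p = 0.326) on the log2 scale. The i-BET858 difference was called in replicates 1 and 2 alone (−0.42, adjusted p = 0.00749), as it was without i-BET151 replicate 3 (adjusted p = 0.0439). For i-BET151, replicates 1 and 2 gave −0.17 and replicate 3 gave −0.86. The change of the i-BET858 effect between the times was 0.75 (adjusted p = 0.178, or 0.0302 with the block).

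MAP3K1 (ENSG00000095015.6, chromosome 5, 56815549 to 56896152, plus strand) encodes MEKK1, a JNK pathway kinase that also carries ubiquitin ligase activity. At 4 h it was at 22.2, 21.2 and 27.0 CPM with DMSO, 16.5, 22.2 and 19.1 CPM with i-BET858, and 28.2, 20.9 and 28.7 CPM with i-BET151. Both treated groups overlapped DMSO. Log2 fold changes were −0.28 (adjusted p = 0.269) and 0.14 (adjusted p = 0.654). At 24 h the DMSO libraries held 16.0, 15.7 and 20.6 CPM, those with i-BET858 19.7, 16.2 and 20.1 CPM, and those with i-BET151 21.1, 23.7 and 22.6 CPM. Only the i-BET151 libraries all lay above DMSO. i-BET858 gave a log2 fold change of 0.06 (adjusted p = 0.799), and i-BET151 one of 0.34 (adjusted p = 0.109, or 0.0363 with the block).

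**Figure D2:**
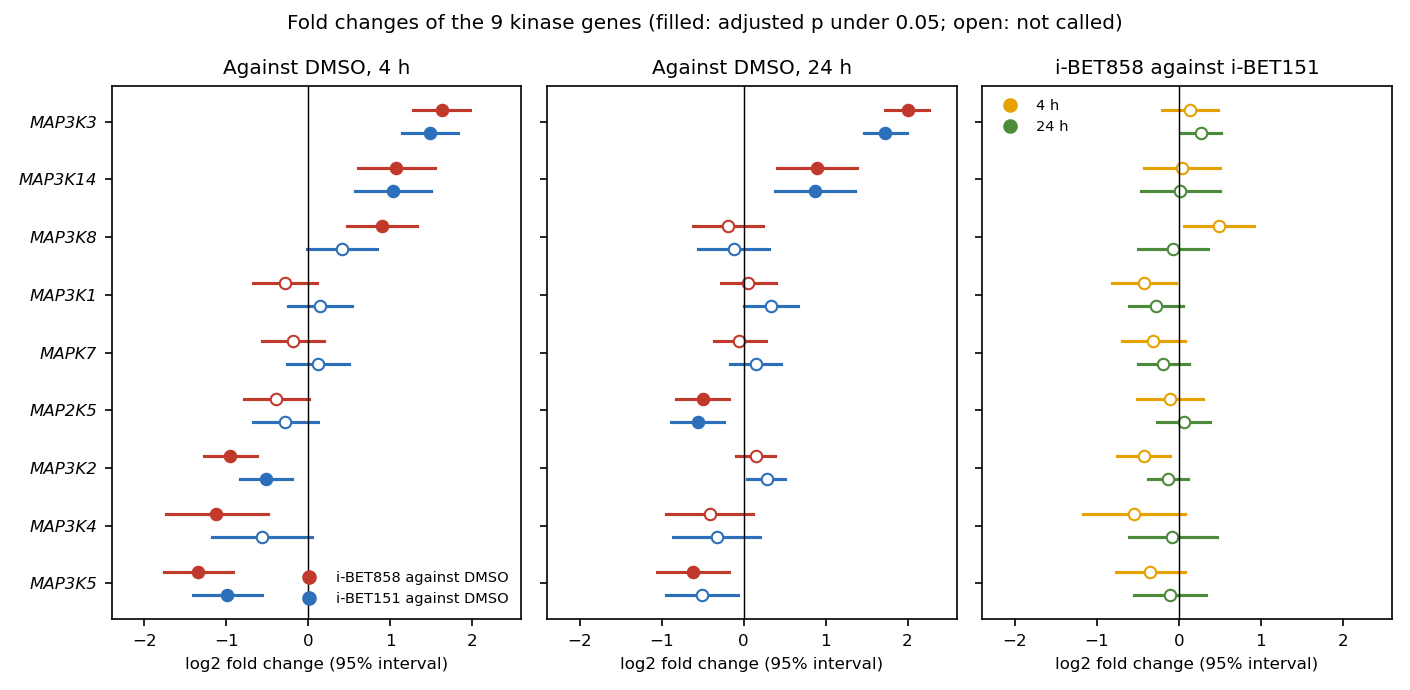
Log2 fold changes of the 9 kinase genes with 95% intervals, for both inhibitors against DMSO at 4 h (left) and 24 h (middle) and for i-BET858 against i-BET151 at both times (right). Filled points passed an adjusted p under 0.05 and open points did not. MAP3K3 lies farthest from 0 in both DMSO panels, between 1.49 and 2.0, and no point is filled on the right.

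The number of kinases whose treated and DMSO libraries did not overlap was 7 of 9 with i-BET858 and 6 with i-BET151 at 4 h, against 44.6% and 36.7% of all genes. At 24 h it was 6 and 5 of 9, against 55.1% and 48.9%. At a fold change of at least 2 beside the adjusted p, MAP3K3, MAP3K14, MAP3K4 and MAP3K5 were called with i-BET858 at 4 h (14.1% of all genes), MAP3K3 and MAP3K14 with i-BET151 at 4 h (7.1%), and MAP3K3 alone at 24 h with either inhibitor (18.8% and 13.7%). In replicates 1 and 2 alone, 7 and 5 kinases were called at 4 h, and 5 and 5 at 24 h, with i-BET858 and i-BET151 respectively. In the same fits 41.9% and 25.9% of all genes were called at 4 h, and 60.7% and 54.2% at 24 h. The calls gained there were MAP2K5 with i-BET858 and MAP3K4 with i-BET151 at 4 h, and at 24 h MAP3K4 with i-BET858 and MAP3K1 and MAP3K5 with i-BET151. With the replicate block, 6 were called with i-BET151 at 24 h in place of 3, as MAP3K1 and MAP3K2 were higher and MAP3K5 lower, while the share of all genes called went from 33.8% to 45.9%. The block raised that share in the other 3 comparisons too, to 45.4% and 32.7% at 4 h and 52.0% with i-BET858 at 24 h.

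Some calls were gained when a single library was left out. They were MAP2K5 with i-BET858 at 4 h without i-BET858 replicate 3 (adjusted p = 0.0462), and with i-BET151 at 24 h MAP3K1 without DMSO replicate 3 (adjusted p = 0.0210), MAP3K2 without i-BET151 replicate 1 (adjusted p = 0.0465) and MAP3K5 without i-BET151 replicate 3 (adjusted p = 0.0272). The change of the i-BET858 effect between the times was called for MAP3K3 (0.56, adjusted p = 0.0309) and MAP3K4 (1.10, adjusted p = 0.0421) without i-BET858 replicate 2 at 4 h.

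Both compounds were given at the same dose and for the same times, so their effects were compared directly for the 9 kinases at 2 times, 18 comparisons in all. In edgeR 0 of 9 were called at 4 h and 0 of 9 at 24 h, when p-values were adjusted over all genes tested, of which 0.971% and 0.21% were called. DESeq2 called none either, and at an unadjusted p under 0.05 in edgeR there were 3 at 4 h and 1 at 24 h. Of all genes tested, 2042 of 17192 at 4 h and 1953 of 17157 at 24 h had such a p. At 4 h MAP3K2 was lower with i-BET858 in all 9 pairs of libraries, by −0.43 (95% interval −0.75 to −0.11, adjusted p = 0.225). With the replicate block it was called, at −0.42 (adjusted p = 0.0319), where 9.63% of all genes were. Replicates 1 and 2 alone gave −0.31 (adjusted p = 0.347), and replicate 3 gave −0.66. MAP3K8 was higher with i-BET858 by 0.49 at 4 h in all 9 pairs (0.06 to 0.92, adjusted p = 0.324), and MAP3K1 lower by −0.42 in 8 of 9 (−0.81 to −0.03, adjusted p = 0.370). For MAP3K3 the difference was 0.14 at 4 h (−0.20 to 0.48) and 0.27 at 24 h (0.01 to 0.52, adjusted p = 0.405), when i-BET858 was higher in all 9 pairs. For MAP3K14 the intervals were −0.42 to 0.50 at 4 h and −0.46 to 0.50 at 24 h, around differences of 0.04 and 0.02. The widest interval was that of MAP3K4 at 4 h, from −1.17 to 0.07 around −0.55, with −0.26 from replicates 1 and 2 and −1.39 from replicate 3. Its difference at 24 h was −0.08, with −0.24 from replicates 1 and 2 and 0.53 from replicate 3. Intervals at 4 h were −0.77 to 0.07 for MAP3K5, −0.51 to 0.29 for MAP2K5 and −0.69 to 0.07 for MAPK7. At 24 h they were −0.61 to 0.05 for MAP3K1, −0.37 to 0.11 for MAP3K2, −0.61 to 0.46 for MAP3K4, −0.55 to 0.33 for MAP3K5, −0.50 to 0.36 for MAP3K8, −0.26 to 0.38 for MAP2K5 and −0.50 to 0.12 for MAPK7. The intervals of MAP3K2, MAP3K8 and MAP3K1 at 4 h and of MAP3K3 at 24 h lay on one side of 0, though none of these differences was called after adjustment, and the other intervals held 0.

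Over time, 3 of the 9 kinases changed their i-BET858 effect between 4 and 24 h (MAP3K2, MAP3K5 and MAP3K8), against 27.2% of all genes. With i-BET151 MAP3K2 alone did, against 13.8% of all genes. The MAP3K3 effect differed between the times by 0.42 with i-BET858 (SE 0.19, adjusted p = 0.123) and by 0.26 with i-BET151 (adjusted p = 0.414). In DMSO, edgeR called 0 of 9 between 24 and 4 h (0.0386% of all genes), with 3 at an unadjusted p under 0.05, namely MAP3K1, MAP3K2 and MAP3K5. Of all genes tested, 1664 of 18154 had such a p. DESeq2 called 1 of 9, MAP3K2, and the share of all genes that it called is not given here.

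To compare the kinases with each other, CPM were divided by the kilobases of annotated exon. With DMSO at 4 h MAPK7 had the highest level, 6.86 ± 0.673 CPM per kb (SD, n = 3), and overlapped MAP3K2 at 6.43 ± 0.641. MAP3K3 followed at 5.05 ± 0.400, apart from its neighbours, and MAP2K5 at 3.97 ± 0.209. The other 5 lay between 2.24 (MAP3K8) and 3.03 (MAP3K1), each overlapping the next. With DMSO at 24 h MAPK7 was again first, at 6.23 ± 0.727, and MAP3K3 at 4.65 ± 0.356 overlapped MAP2K5 and lay above MAP3K2 at 4.06 ± 0.0849. In all 4 treated conditions MAP3K3 was first, above MAPK7 in every library, with 15.5 ± 3.16 and 14.2 ± 1.10 CPM per kb at 4 h and 19.1 ± 1.89 and 15.7 ± 1.44 at 24 h, for i-BET858 and i-BET151. MAP3K5 was last in each of these 4 conditions, at 0.890 to 1.15 CPM per kb, and overlapped MAP3K4 with i-BET858 at 4 h and with i-BET151 at 24 h. The rank of MAP2K5 depended on the length used: over the longest transcript it came first in DMSO at both times, whereas MAP3K3 stayed first in all treated conditions.

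The ratio of MAP3K3 to MAP3K2, per kb of exon, was 0.711, 0.910 and 0.753 with DMSO at 4 h and 1.24, 1.03 and 1.18 with DMSO at 24 h. With i-BET858 it was 3.88, 5.30 and 4.79 at 4 h and 4.07, 4.15 and 4.20 at 24 h. With i-BET151 it was 2.96, 3.65 and 2.95 at 4 h and 3.38, 2.80 and 3.29 at 24 h. The ratio per kb of exon was above 1 in every treated library and below 1 in DMSO at 4 h. The latter depended on the length used, since over the longest transcript the DMSO libraries at 4 h gave 0.882, 1.13 and 0.934. By that length the treated libraries lay between 3.47 and 6.57. Of the summed level of the 7 MAP3Ks, MAP3K3 made up 21.1% ± 0.785 (SD, n = 3) with DMSO at 4 h, 47.0% ± 4.48 with i-BET858 and 42.9% ± 1.27 with i-BET151. At 24 h its share was 24.3% ± 1.55, 54.4% ± 1.75 and 48.0% ± 1.58. The summed level itself was 23.9 ± 1.10 CPM per kb with DMSO at 4 h and 19.2 ± 0.481 at 24 h, and lay between 32.6 and 35.1 as a mean in the 4 treated conditions. MAP3K2 went the other way in share, from 26.9% with DMSO to 10.2% with i-BET858 at 4 h. These shares and ratios are descriptions of the levels tested above and were given no test of their own.

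**Figure D3:**
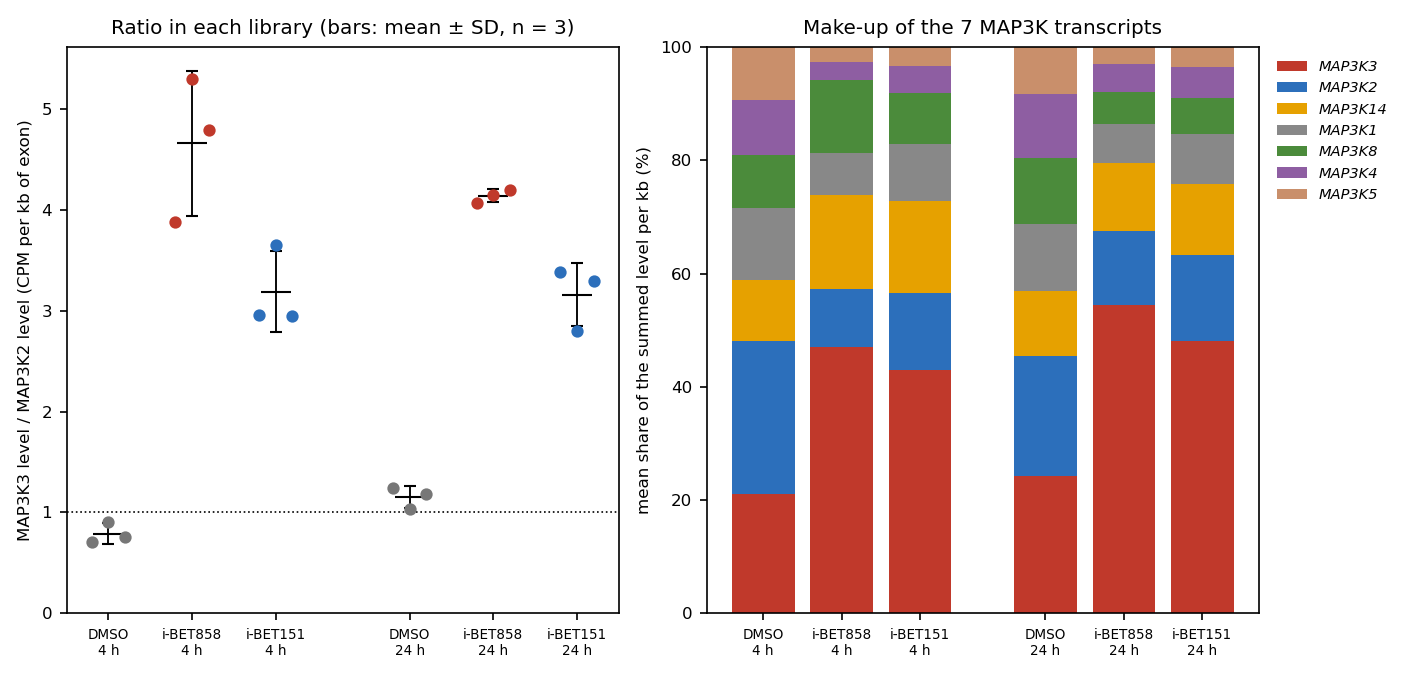
Left, the ratio of the MAP3K3 to the MAP3K2 level (CPM per kb of exon) in each library, with the mean ± SD of 3 replicates and a dotted line at 1. Right, the mean share of each of 7 MAP3K transcripts in their summed level per kb, where the MAP3K3 band grows from 21.1% and 24.3% with DMSO to between 42.9% and 54.4% with an inhibitor.

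The rest of the 3 tiers was examined by lists of genes, whose counts are read against the share of all genes called in the same comparison, 30.8% and 16.2% at 4 h and 41.7% and 33.8% at 24 h for i-BET858 and i-BET151. Of 18 other MAP3K genes 16 were tested, of which 2 rose and 3 fell with i-BET858 at 4 h, 2 rose and 1 fell with i-BET151 at 4 h, and 5 rose and 3 fell with each inhibitor at 24 h. These were 31.2% and 18.8% of the list at 4 h, near the shares of all genes, and 8 of 16 with each at 24 h. The list's median log2 fold change stayed between −0.12 and 0.04 over the 4 comparisons, and the median of all genes between −0.01 and 0.02. TAOK3, a TAO family kinase, rose in all 4, from 15.1 ± 1.10 to 27.6 ± 5.44 CPM with i-BET858 at 4 h (1.83-fold, adjusted p = 0.00174) and from 14.5 ± 1.37 to 36.9 ± 2.95 CPM at 24 h (2.48-fold, adjusted p = 1.36e-05). With i-BET151 it was 2.0-fold and 2.09-fold higher. MAP3K21, a mixed-lineage kinase, also rose in all 4, by 1.37-fold to 1.78-fold. With the replicate block 2 rose and 3 fell with i-BET151 at 4 h, and in replicates 1 and 2 alone 2 rose and 6 fell with i-BET858 at 4 h, in fits that called 32.7% and 41.9% of all genes.

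Of the 6 other MAP2K genes, 2 rose and 1 fell with i-BET858 and 2 rose with i-BET151 at 4 h, and 3 and 4 rose at 24 h with none lower, from 33.3% to 66.7% of a list of 6. MAP2K3, which activates p38, rose from 136 ± 11.6 to 424 ± 1.93 CPM with i-BET858 at 4 h (3.13-fold, adjusted p = 5.12e-06) and to 334 ± 51.5 CPM with i-BET151 (2.46-fold, adjusted p = 6.54e-05). At 24 h its rise was 1.89-fold and 1.43-fold. MAP2K1 (MEK1), of the ERK route, rose by 1.42-fold to 1.54-fold in the 4 comparisons. The median of the list was 0.15, 0.10, 0.33 and 0.35 on the log2 scale, for i-BET858 and i-BET151 at 4 h and then at 24 h.

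Of 13 other MAPK genes 12 were tested. At 4 h 2 fell with i-BET858 and 1 rose with i-BET151, whereas at 24 h 4 rose and 4 fell with i-BET858 and 4 rose and 3 fell with i-BET151. The list's share called was 16.7% and 8.33% at 4 h, under that of all genes, and 66.7% and 58.3% at 24 h. No gene of the list was called in all 4 comparisons. The 4 that fell with i-BET858 at 24 h were picked out after their values were seen: MAPK13 (log2 fold change −2.97, adjusted p = 8.28e-06), MAPK3 (−2.02, adjusted p = 1.93e-05), MAPK11 (−1.87, adjusted p = 7.47e-05) and MAPK12 (−1.54, adjusted p = 0.0405). MAPK3 is ERK1 and the other three are p38 isoforms. At 4 h with i-BET858 their log2 fold changes had been −0.13, 0.09, 0.01 and 0.24. Among those that rose with i-BET858 at 24 h, likewise picked after the fact, were MAPK8 (0.83), MAPK9 (0.53) and NLK (0.46), which encode JNK1, JNK2 and Nemo-like kinase. The counts at 4 h depended on the settings: with the replicate block 2 rose and 2 fell with i-BET858, and 1 rose and 2 fell with i-BET151. In replicates 1 and 2 alone the counts at 4 h were 2 higher and 2 lower, and 2 higher and 1 lower. All genes were called at 45.4% and 32.7% with the block and at 41.9% and 25.9% in replicates 1 and 2.

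Among 30 genes of known binding partners and regulators of the 9 kinases, 10 rose and 8 fell with i-BET858 at 4 h, and 7 rose and 4 fell with i-BET151. At 24 h 9 rose and 7 fell, and 8 rose and 5 fell. These were 60.0% and 36.7% of the list at 4 h, where 30.8% and 16.2% of all genes were called, and 53.3% and 43.3% at 24 h, where 41.7% and 33.8% were. Called in all 4 comparisons were 5 genes. GADD45B, a stress-induced activator of MEKK4, rose from 12.2 ± 3.65 to 73.3 ± 13.2 CPM with i-BET858 at 4 h (6.03-fold, adjusted p = 1.91e-05) and 3.59-fold with i-BET151, and was 3.14-fold and 1.91-fold higher at 24 h. GADD45A, of the same family, rose 2.70-fold and 1.89-fold at 4 h and 1.98-fold and 1.48-fold at 24 h. TXNIP, which binds thioredoxin, the inhibitor of ASK1, rose between 1.93-fold and 3.14-fold. NFKB1, whose product holds TPL2, fell in all 4, from 74.4 ± 7.86 to 41.7 ± 8.39 CPM with i-BET858 at 4 h (1.78-fold, adjusted p = 0.00704) and from 51.1 ± 3.03 to 20.0 ± 2.47 CPM at 24 h (2.62-fold, adjusted p = 1.24e-05). The fifth, TXN, encodes thioredoxin itself, was named after its values were seen, and turned direction between the times. It was higher at 4 h, by 0.54 on the log2 scale with i-BET858 (adjusted p = 0.00125) and 0.31 for i-BET151 (adjusted p = 0.0439). At 24 h it was lower than in DMSO, the log2 differences being −0.28 for i-BET858 (adjusted p = 0.0367) and −0.34 for i-BET151 (adjusted p = 0.0189). With the replicate block 12 rose and 9 fell with i-BET151 at 4 h, and in replicates 1 and 2 alone 11 rose and 9 fell with i-BET151 at 24 h, where 32.7% and 54.2% of all genes were called.

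Of 11 targets and effectors of ERK5, 5 rose and 2 fell with i-BET858 and 4 rose and 1 fell with i-BET151 at 4 h, followed by 4 that rose with i-BET858 and 3 that rose and 1 that fell with i-BET151 at 24 h. At 4 h these were 63.6% and 45.5% of the list, against 30.8% and 16.2% of all genes. At 24 h they were 36.4% with each inhibitor, below the 41.7% of all genes with i-BET858 and near the 33.8% with i-BET151. The list's median was 0.66, 0.14, 0.28 and 0.17 on the log2 scale. KLF2, a Krüppel-like factor induced by ERK5 through MEF2, rose in all 4 from a low level, 2.22 ± 1.45 to 11.9 ± 4.66 CPM with i-BET858 at 4 h (5.38-fold, adjusted p = 0.00149) and 1.38 ± 0.185 to 10.3 ± 4.17 CPM at 24 h (7.20-fold, adjusted p = 6.5e-05). SGK1, a kinase that ERK5 phosphorylates, rose 5.04-fold with i-BET858 and 2.19-fold with i-BET151 at 4 h, and 3.39-fold and 2.66-fold at 24 h. JUN, an AP-1 subunit, rose by 1.30-fold to 1.58-fold. In replicates 1 and 2 alone, 4 rose and 3 fell at 24 h with each inhibitor (63.6%), against 60.7% and 54.2% of all genes. KLF2, SGK1 and JUN also respond to other pathways, and ERK5 activity was not measured.

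Of 7 genes of the noncanonical NF-κB route downstream of NIK, 5 were tested at 4 h and 4 at 24 h. With i-BET858 at 4 h 1 fell, RELB (log2 fold change −1.11), and none was called with i-BET151, where 1 had an unadjusted p under 0.05 and the replicate block gave 1 higher and 1 lower with each inhibitor. In replicates 1 and 2 alone 2 were higher and 1 lower with i-BET858 at 4 h, where 41.9% of all genes were called. The block called 45.4% of all genes with i-BET858 and 32.7% with i-BET151 at 4 h. With i-BET151 at 4 h, 5067 of 17192 genes had an unadjusted p under 0.05. At 24 h RELB and NFKB2, the transcription factor pair of this route, both fell, with log2 fold changes for RELB of −2.01 (i-BET858, adjusted p = 2.18e-05) and −1.22 (i-BET151, adjusted p = 0.000734), and for NFKB2 of −0.63 (adjusted p = 0.00141) and −0.42 (adjusted p = 0.0168). They were named after their values were seen. MAP3K14 was higher in the same comparisons.

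**Figure D4:**
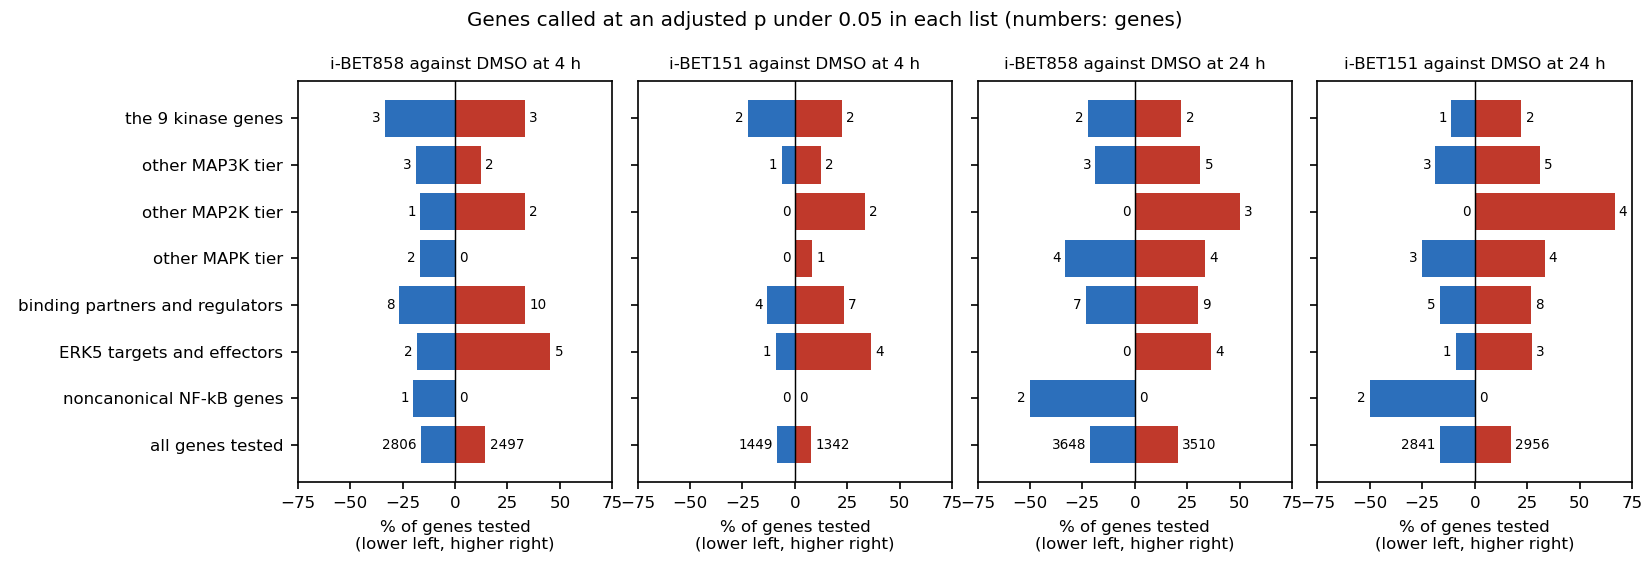
Share of the tested genes of each list called higher (red, right) or lower (blue, left) at an adjusted p under 0.05 in the 4 comparisons with DMSO, with the number of genes beside each bar and all genes tested at the bottom. Among the other MAPK genes, 2 were called with i-BET858 at 4 h and 8 at 24 h.

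Finally, the transcripts most like MAP3K3 over the 18 libraries were sought among the 12443 genes whose mean log2 CPM was 1 or more, by Pearson's r of log2 CPM. They were SESN3 (r = 0.990), TMEM131L (0.989), NPTXR (0.987), MAPKBP1 (0.982) and TBC1D12 (0.982). SESN3 encodes a sestrin, NPTXR a neuronal pentraxin receptor and MAPKBP1 a scaffold protein that binds JNK. With DMSO at 4 h SESN3 stood at 27.1 CPM as a mean, against 88.9 with i-BET858 and 72.4 with i-BET151. NPTXR went from 49.5 to 187 and 129 CPM, and at 24 h from 46.8 to 218 and 175 CPM. Over the same libraries r with MAP3K3 was 0.803 for MAP3K14, −0.792 for MAP3K5, −0.729 for MAP2K5 and −0.549 for MAP3K4, and it lay between −0.293 and 0.222 for MAP3K1, MAP3K2, MAP3K8 and MAPK7. Of the 12443 genes, 967 had a higher r with MAP3K3 than MAP3K14 had, and 11825 had a higher r than MAP3K5. The libraries share drug, time and replicate number, so they are not independent points, and the values are a description.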

How the data were processed

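The authors aligned reads to GRCh38 with STAR and deposited raw counts per gene in 2 tables, one for each time. The gene annotation and strand setting are not given in the sources used here, and the time of each column was taken from its table. Names and positions came from GENCODE 44, which 58472 of 58825 genes (99.4%) matched. The members and lists were chosen with earlier results of these data known.

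The 3 groups of 3 libraries at each time entered 1 fit in edgeR 4.0.16 under R 4.3.3, with TMM scaling, its low-count filter and the quasi-likelihood test, and changes between times in a fit of all 18. P-values were adjusted by Benjamini-Hochberg over all genes tested, and a gene was called at an adjusted p under 0.05. CPM use TMM-scaled library sizes. Intervals are 95% and 2-sided. All 9 genes were named. Of each list, genes called in all 4 comparisons with DMSO were named, at most the 4 with the largest mean change, and of the likeness search the first 5. Genes named outside this rule are marked. The values of 1 gene of the lists are not reported here.

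Replicates differed by 4.47 to 72.6 times counting error (chi-square per degree of freedom). After group means were removed, libraries of the same number correlated at 0.125 to 0.344 at 4 h and 0.145 to 0.330 at 24 h. Libraries of different numbers correlated at −0.311 to 0.216 and at −0.304 to 0.285, which overlaps those ranges. Numbers were taken to pair libraries because all same-number values exceeded 0.1, though some values of different numbers did too. Whether libraries of a number were made together is therefore not shown. Replicate 3 stood apart in every condition, and its part in these correlations was not tested. Alternatives were DESeq2 1.42.0, its size factors, total library size, no low-count filter, at least 10 counts in every library, only the groups compared, all 18 libraries in one fit, the replicate block, replicates 1 and 2 only, each library left out, 2 fold thresholds and the longest transcript for levels. The fits were tested on simulated data, with no outcome reported here.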

Additional observations from a re-analysis of the deposited data

Results flagged for a closer look

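The effect of an inhibitor against DMSO differed between 4 and 24 h, by the drug-by-time test in edgeR, for 3 of the kinases with i-BET858: MAP3K2 (a change of 1.14 on the log2 scale, adjusted p = 0.000158), MAP3K5 (0.77, adjusted p = 0.0380) and MAP3K8 (−1.04, adjusted p = 0.00750). With i-BET151 it differed for MAP3K2 (0.81, adjusted p = 0.00587). For MAP3K2 the DMSO libraries themselves were lower at 24 h, at a mean of 47.1 CPM against 74.7 CPM at 4 h, and the part of this difference in the change was not tested. The MAP3K5 call had adjusted p values from 0.00898 to 0.182 over its alternatives.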

How the results depend on the processing

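Of 93 counts of kinases called under other settings 83 stayed within 1.5 times, and of 570 log2 fold changes under other settings 6 turned their sign; MAP3K3 stayed called in all 4 comparisons with DMSO. Requiring a 2-fold change left 2 kinases with i-BET151 at 4 h, 1 with i-BET858 and 1 with i-BET151 at 24 h, and 0 for the change of the i-BET151 effect. The replicate block gave 1 kinase between the inhibitors at 4 h (MAP3K2), 6 with i-BET151 at 24 h and 1 between the DMSO times (MAP3K2), and besides the calls given beside the results it changed no other call of a kinase. Replicates 1 and 2 alone gave 5 with i-BET151 at 24 h. No low-count filter gave 1 and DESeq2 gave 1 between the DMSO times. With a library left out, the count with i-BET858 at 24 h ran from 2 to 5, with 2 without DMSO replicate 3 or i-BET858 replicate 1 or 2, and that of changed i-BET858 effects from 2 to 5, with 5 without i-BET858 replicate 2 at 4 h.

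The turned signs were all of small differences that were not called. With total library sizes, MAP3K14 was at −0.06 and −0.03 between the inhibitors at 4 and 24 h, and MAP3K1 at −0.03 with i-BET858 at 24 h. In replicates 1 and 2, MAPK7 was at −0.09 with i-BET151 at 24 h, and between the inhibitors at 24 h MAP3K5 was at 0.08 and MAPK7 at 0.01. The values counted above did not hold every change between the times. Outside them, replicates 1 and 2 turned the MAP2K5 change of the i-BET858 effect (0.13) and the MAPK7 change of the i-BET151 effect (−0.17). MAPK7 between the DMSO times turned too (0.04), and none of these was called. With a library left out, values between the inhibitors at 4 h ran from −0.01 to 0.29 (MAP3K3), −0.16 to 0.22 (MAP3K14) and −0.27 to 0.06 (MAP2K5), and at 24 h from −0.32 to 0.14 (MAP3K4), −0.24 to 0.06 (MAP3K5), −0.17 to 0.08 (MAP3K8), −0.07 to 0.18 (MAP3K14) and −0.01 to 0.11 (MAP2K5). With i-BET858 at 24 h they ran from −0.02 to 0.23 (MAP3K1) and −0.12 to 0.02 (MAPK7). The cause of these shifts was not tested. With 3 libraries a group, the 95% intervals given above show how precisely each difference was measured.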
